A study of Mus musculus with 9 samples.

Results

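The collagen genes were followed in the blood of mouse embryos that carried 0, 1 or 2 copies of the knock-in allele ΔC95 of Cbfb. A collagen gene was any gene whose symbol in the array annotation has the form Col, a type number, a and a chain number. The annotation named 42 such genes of 18193 in all, through 82 probe sets, none of which was shared with another gene. For genes with several, the brightest probe set on average across the 9 arrays was read, and 15 of the 42 had a single probe set. Of the 42 members, 32 had a mean over 9 arrays above 3.79 on the log2 scale, the level below which the dimmest 40% of all probe sets lay. The other 10 were Col4a3, Col6a1, Col6a5, Col8a2, Col13a1, Col14a1, Col17a1, Col23a1, Col24a1 and Col26a1.

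RNA came from peripheral blood collected at E12.5 and frozen, pooled from 8 to 10 embryos of a genotype, on a mixed C57BL6/129SvEv background. The genotypes were Cbfb+/+ (wild type), Cbfb+/ΔC95 (heterozygous) and CbfbΔC95/ΔC95 (homozygous), all offspring of heterozygous parents, with 3 Affymetrix mouse arrays each. Cbfb encodes CBFβ, the partner that steadies RUNX proteins on DNA. The labels do not describe the allele; the title of the series names the leukemia fusion protein CBFβ-SMMHC and its C-terminus. No agent or treatment was given in any group, per the labels. Whether each array had a blood pool of its own is not stated, so the p-values cover only array-to-array spread, which may be technical.

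Collagens are secreted proteins of the extracellular matrix whose chains wind around each other into a triple helix. Fibrillar types, such as I, III and V, assemble into the fibrils of connective tissue and are made mainly by fibroblasts and other mesenchymal cells. Type IV collagen forms the sheet-like network of basement membranes and is made by many epithelial, endothelial and endoderm cells. Blood cells themselves make little fibrillar collagen. Megakaryocytes and platelets carry receptors for collagen, through which platelets adhere at a wound.

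Promoters of the genes that carry the main patterns are printed here because Col3a1 and Col1a2 both rose in heterozygous and both fell in homozygous blood, and Col4a1 and Col4a2 both fell in heterozygous blood. Each runs 5′ to 3′ on the strand of its gene, from 250 bases before to 50 after a transcription start of RefSeq in GRCm38.p6. Capitals mark every match, on either strand, of the CCAAT box, the TATA box (TATAAA), the GC box (GGGCGG) and TGTGGT. The last is a form of the core of the RUNX recognition sequence, and other forms of that core were not searched. The windows are chr1:45311288-45311587 (plus strand) for Col3a1, chr6:4505368-4505667 (plus strand) for Col1a2, chr8:11312777-11313076 (minus strand) for Col4a1 and chr8:11312555-11312854 (plus strand) for Col4a2.
Col3a1: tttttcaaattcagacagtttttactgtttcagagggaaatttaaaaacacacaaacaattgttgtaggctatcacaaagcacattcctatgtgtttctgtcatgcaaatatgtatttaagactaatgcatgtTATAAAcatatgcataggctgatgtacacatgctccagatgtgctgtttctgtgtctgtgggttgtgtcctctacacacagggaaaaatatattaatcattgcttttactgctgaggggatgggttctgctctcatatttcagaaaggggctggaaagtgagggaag
Col1a2: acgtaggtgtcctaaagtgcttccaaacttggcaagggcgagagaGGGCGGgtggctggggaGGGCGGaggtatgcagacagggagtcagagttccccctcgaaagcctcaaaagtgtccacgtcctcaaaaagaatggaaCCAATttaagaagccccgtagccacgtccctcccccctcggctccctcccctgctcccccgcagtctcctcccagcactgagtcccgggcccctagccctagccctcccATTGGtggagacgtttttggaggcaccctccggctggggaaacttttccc
Col4a1: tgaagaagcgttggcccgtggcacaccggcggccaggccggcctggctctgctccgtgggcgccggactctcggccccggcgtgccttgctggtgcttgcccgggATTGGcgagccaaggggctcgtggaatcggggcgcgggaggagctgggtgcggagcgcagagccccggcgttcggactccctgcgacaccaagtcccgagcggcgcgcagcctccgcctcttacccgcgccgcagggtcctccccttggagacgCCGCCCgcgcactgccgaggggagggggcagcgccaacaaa
Col4a2: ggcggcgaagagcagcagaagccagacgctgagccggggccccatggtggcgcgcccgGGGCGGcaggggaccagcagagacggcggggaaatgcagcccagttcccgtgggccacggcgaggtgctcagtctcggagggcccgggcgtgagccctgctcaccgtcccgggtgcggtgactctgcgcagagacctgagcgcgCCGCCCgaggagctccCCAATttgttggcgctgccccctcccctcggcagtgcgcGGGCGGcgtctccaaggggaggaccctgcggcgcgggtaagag

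The windows of Col4a1 and Col4a2 share 78 bases, chr8:11312777-11312854, read from opposite strands, and their annotated starts lie 21 bases apart. Both are rich in G and C, at 74.0% and 73.7%, where the median of all 32851 promoter windows was 52.7%. The Col3a1 window held 37.7% and the Col1a2 window 61.0%. The Col1a2 window held CCAAT 109 bases before the start and its reverse complement from base 1 after it, with GGGCGG at 205 and 188 bases before the start. The Col3a1 window held 1 TATAAA, 117 bases before the start, and neither CCAAT nor GGGCGG. Among 36 windows of 33 collagen genes, CCAAT or its reverse complement stood in 13 (36.1%, against 37.4% of all windows), TATAAA in 5 (13.9% against 13.6%), GGGCGG in 22 (61.1% against 35.7%) and TGTGGT in 3 (8.33% against 16.8%). None of the 4 printed windows held TGTGGT on either strand. Of the called genes whose windows are not printed, Col18a1 held its reverse complement ACCACA in window 2, 12 bases before that start. No window was available for Col5a2. Other forms of the RUNX core, such as TGCGGT, which stands unmarked in the Col4a2 window, were not searched or counted. The marked motifs do not overlap one another in the printed windows, and a match is a description of the letters only.

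The fibrillar genes Col3a1, Col1a2 and Col5a2 were highest in heterozygous, intermediate in wild-type and lowest in homozygous blood. Col4a1, which encodes a basement membrane chain, was lower in both mutant genotypes than in wild type. The values are log2 signals, and calls rest on limma with a Benjamini-Hochberg adjusted p under 0.05 over 45037 probe sets. Of the 42 members, 5 rose and 2 fell in heterozygous against wild-type blood, where 4.79% and 7.04% of all 18193 genes did. In homozygous against wild-type blood 3 rose and 4 fell (7.14% and 9.52% of the members), where 10.7% and 14.9% of all genes did, so collagens were not called more often than other genes there. In homozygous against heterozygous blood 2 rose and 4 fell (4.76% and 9.52%), near the 5.38% and 10.4% of all genes. The comparisons share arrays and are not independent of one another. In whole blood, fewer cells of a type and less RNA per cell cannot be told apart.

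**Figure D1:**
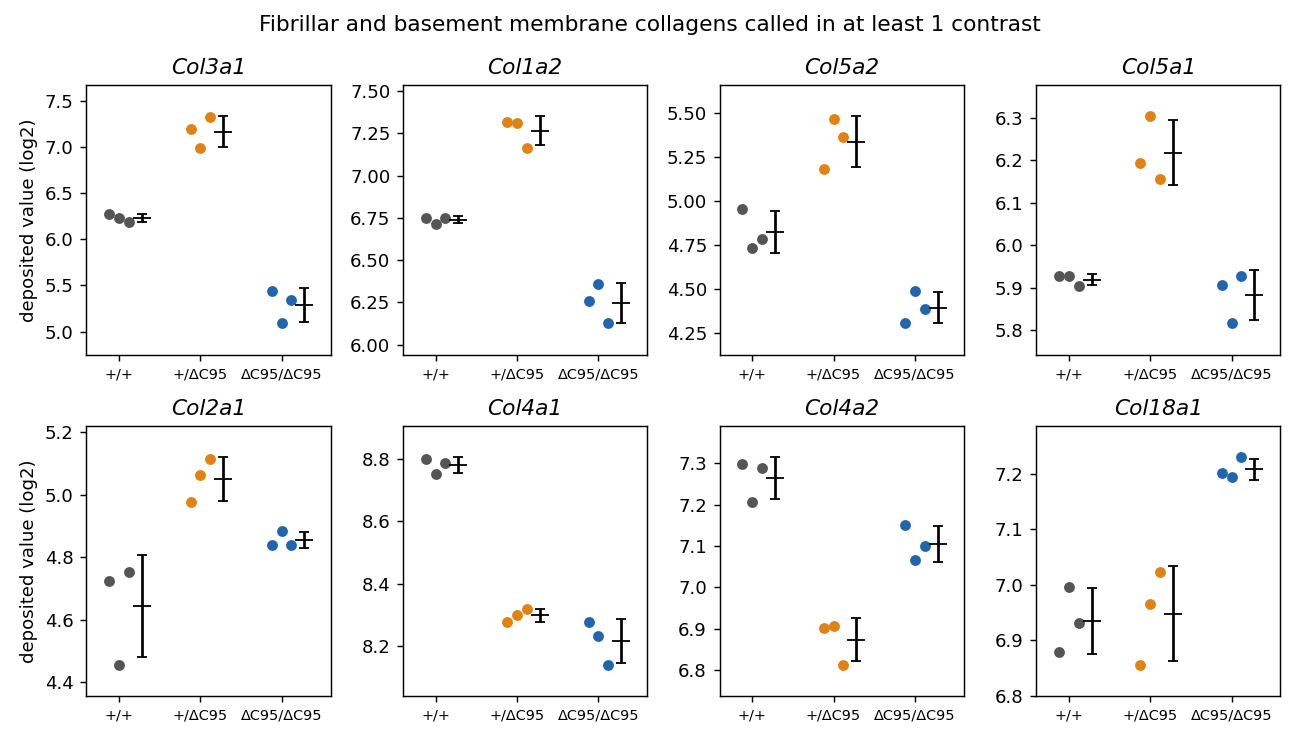
Deposited log2 value of each array (points) with mean and SD to their right (bars, n = 3) for the 8 fibrillar and basement membrane collagen genes called in at least 1 comparison, by genotype. The axes do not start at 0 and differ between panels. In Col3a1, Col1a2 and Col5a2 the heterozygous arrays lie above and the homozygous arrays below the wild-type arrays, and in Col4a1 all mutant arrays lie below 8.4 and all wild-type arrays above 8.7.

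Col3a1 encodes the single chain of type III collagen, a fibrillar collagen of vessels and loose connective tissue. It was at 6.27, 6.23 and 6.19 on the wild-type arrays, 7.19, 6.98 and 7.32 on the heterozygous and 5.44, 5.09 and 5.35 on the homozygous. No array of a genotype overlapped with those of another. It rose by 0.93 ± 0.10 on the log2 scale in heterozygous blood (SE, n = 3 against 3; 1.91-fold, limma adjusted p = 0.000149). In homozygous blood it fell by 0.94 ± 0.10 (1.92-fold, limma adjusted p = 2.12e-05). The homozygous minus heterozygous difference was -1.87 (3.66-fold, limma adjusted p = 2.38e-07), the largest of any collagen gene in any comparison. A second, dimmer probe set of Col3a1, at a mean of 3.61, gave 0.25 (limma adjusted p = 0.149) and -0.22 (limma adjusted p = 0.141) against wild type, neither called, and -0.47 between the mutant genotypes, which passed. With the mean over both probe sets the differences from wild type were 0.59 and -0.58, still called.

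Col1a2 encodes the alpha 2 chain of type I collagen, the main fibril protein of skin, bone and tendon. Its wild-type arrays were at 6.75, 6.71 and 6.75, the heterozygous at 7.32, 7.31 and 7.17, and the homozygous at 6.26, 6.36 and 6.13. These groups did not overlap either. It rose by 0.53 ± 0.07 in heterozygous blood (SE; limma adjusted p = 0.00066) and fell by 0.49 ± 0.07 in homozygous blood (limma adjusted p = 0.000277). Between homozygous and heterozygous blood the difference was -1.02 (limma adjusted p = 2.14e-06). A dimmer probe set of the gene gave 0.69 and -0.83 against wild type, both called. The dimmest, at a mean of 2.98, gave -0.03 and 0.06 and was not called.

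Its partner Col1a1, which encodes the alpha 1 chain of the same molecule, did not pass the test in any comparison. Col1a1 was at 6.01, 5.91 and 6.09 in wild-type, 6.11, 5.97 and 5.99 in heterozygous and 5.76, 5.97 and 5.97 in homozygous blood. The arrays of all genotypes overlapped. The differences from wild type were 0.02 ± 0.08 and -0.10 ± 0.08 (SE) in heterozygous and homozygous blood. Its other probe set gave 0.09 and 0.00 and did not pass either. The log2 ratio of Col1a2 to Col1a1 within an array was 0.50 higher in heterozygous and lower by a change of -0.39 in homozygous than in wild-type blood, with no overlap of arrays (exact permutation test, 2-sided, p = 0.1, the smallest that 3 against 3 arrays allow, adjusted p = 0.129 over 9 comparisons of 3 chain pairs).

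Type V collagen is a minor component of type I fibrils and sets their width. Its alpha 2 chain gene Col5a2 was at 4.96, 4.73 and 4.78 in wild-type, 5.18, 5.47 and 5.36 in heterozygous and 4.31, 4.49 and 4.39 in homozygous blood. Again no genotypes overlapped. Col5a2 rose by 0.51 ± 0.09 in heterozygous (SE; limma adjusted p = 0.00274) and fell by 0.43 ± 0.09 in homozygous blood (limma adjusted p = 0.00324). With the mean over both of its probe sets, the heterozygous difference was 0.31 and did not pass (limma adjusted p = 0.0708). The second probe set, at a mean of 2.94, gave 0.10 and -0.28 and was not called.

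Col5a1, the gene of the alpha 1 chain of type V, rose in heterozygous blood and was not called in homozygous against wild-type blood. Its arrays were at 5.93, 5.93 and 5.90 in wild-type, 6.19, 6.30 and 6.16 in heterozygous and 5.91, 5.82 and 5.93 in homozygous blood. The heterozygous arrays stood above all others, and the wild-type and homozygous arrays overlapped. The heterozygous difference was 0.30 ± 0.06 (SE; limma adjusted p = 0.00817) and the homozygous one -0.04 ± 0.06 (limma adjusted p = 0.728). The test between the mutant genotypes gave -0.34 (limma adjusted p = 0.00291). Of its other 2 probe sets, 1 gave 0.23 in heterozygous blood (limma adjusted p = 0.0553) and -0.39 between the mutant genotypes, which passed, and the other gave 0.12 and 0.02, which did not.

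Col2a1 encodes type II collagen, the fibril protein of cartilage. It was at 4.72, 4.46 and 4.75 in wild-type, 4.98, 5.06 and 5.11 in heterozygous and 4.84, 4.88 and 4.84 in homozygous blood. The 3 groups did not overlap, and here the homozygous arrays lay above wild type. The heterozygous rise was 0.41 ± 0.08 (SE; limma adjusted p = 0.00657). The homozygous difference of 0.21 ± 0.08 did not pass (limma adjusted p = 0.0871), nor did the difference of -0.20 between the mutant genotypes (limma adjusted p = 0.145).

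The remaining fibrillar genes, Col5a3, Col11a1, Col11a2, Col24a1 and Col27a1, were not called in any comparison. Their wild-type means were 4.20, 3.72, 4.73, 1.88 and 5.73. Their heterozygous differences ran from -0.05 in Col5a3 to 0.18 in Col11a1. Over all 11 fibrillar genes the median difference was 0.18 in heterozygous and -0.04 in homozygous blood, where the medians of all 18193 genes were 0.01 and 0.05. Of the 11, 5 rose (45.5%, against 4.79% of all genes) and 0 fell (against 7.04%) in heterozygous blood. In homozygous blood 0 rose (against 10.7%) and 3 fell (27.3%, against 14.9%). Between the mutant genotypes 4 were lower in homozygous blood (36.4%, against 10.4%) and none was higher (against 5.38%).

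**Figure D2:**
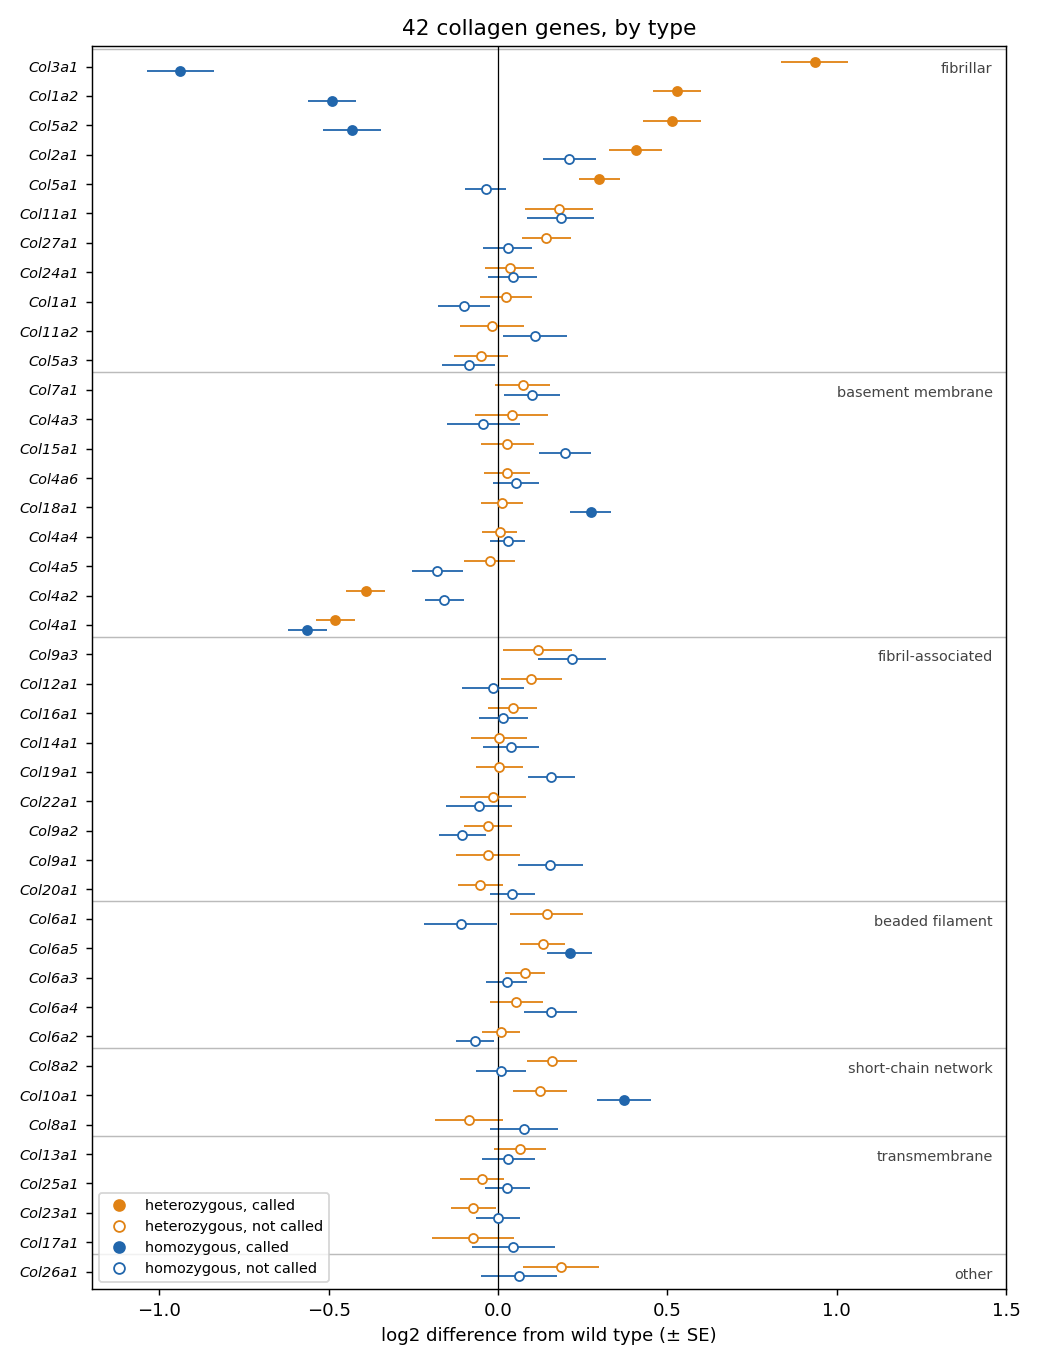
Log2 difference from wild type with its SE (n = 3 arrays against 3) for the 42 collagen genes, grouped by collagen type, in heterozygous (orange) and homozygous (blue) blood; filled points passed the test. The fibrillar genes Col3a1, Col1a2 and Col5a2 lie on opposite sides of 0 in the mutant genotypes, while Col4a1 lies near -0.5 in both and most of the other genes lie within 0.25 of 0.

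Scaling bore on the heterozygous rises. With arrays set to equal means of 10 reference genes, the median heterozygous difference of all genes moved from 0.01 to -0.17. The rise of Col5a1 was then 0.12 and did not pass (limma adjusted p = 0.122), and the other 4 fibrillar rises were still called, with Col5a2 at 0.34 and Col2a1 at 0.23. The poly-A spike-ins, bacterial RNAs that serve as labelling controls, averaged 10.38 ± 0.02 on wild-type arrays (SD, n = 3, 24 probe sets). They averaged 11.26 ± 0.00 on heterozygous and 11.96 ± 0.02 on homozygous arrays. If these were set equal, each heterozygous difference would be lower by 0.88 and each homozygous one by 1.58. Of the heterozygous rises only that of Col3a1, at 0.93, would then stay above 0. No homozygous rise of a collagen gene would, as the largest was 0.37. The hybridization spike-ins averaged 10.32 on wild-type, 10.32 on heterozygous and 10.60 on homozygous arrays. All differences given here are relative to the other transcripts of an array. The targeted gene Cbfb was at 6.01 ± 0.03, 5.77 ± 0.04 and 5.10 ± 0.16 in the 3 genotypes in the same order (SD, n = 3); where its probe set lies relative to the allele's change is not known here.

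Among the basement membrane collagens, Col4a1 and Col4a2 encode the chains of the most widespread type IV network. Col4a1 was at 8.80, 8.75 and 8.79 in wild-type, 8.28, 8.30 and 8.32 in heterozygous and 8.28, 8.23 and 8.14 in homozygous blood. All 6 mutant arrays lay below all wild-type arrays. It fell by 0.48 ± 0.06 in heterozygous (SE; 1.39-fold, limma adjusted p = 0.000285) and by 0.56 ± 0.06 in homozygous blood (1.48-fold, limma adjusted p = 1.46e-05). The difference between the mutant genotypes did not pass (-0.08 ± 0.06, limma adjusted p = 0.409). A second probe set gave -0.51 in both mutant genotypes, called in each.

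Col4a2 was at 7.30, 7.21 and 7.29 in wild-type, 6.90, 6.91 and 6.81 in heterozygous and 7.15, 7.07 and 7.10 in homozygous blood. The heterozygous arrays were lowest and no groups overlapped. It fell by 0.39 ± 0.06 in heterozygous blood (SE; limma adjusted p = 0.00126). In homozygous blood the difference of -0.16 ± 0.06 did not pass (limma adjusted p = 0.0790). It did pass with the dimmest 40% of probe sets left out (limma adjusted p = 0.0457), with an intensity trend, with cyclic loess, with reference genes and with tests on the mean over probe sets. Homozygous blood was higher than heterozygous by 0.23 ± 0.06 (limma adjusted p = 0.0213), a call lost without heterozygous replicate 1 (limma adjusted p = 0.0512) or replicate 3 (limma adjusted p = 0.0742) and without homozygous replicate 1 (limma adjusted p = 0.0503).

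The log2 ratio of Col4a1 to Col4a2 within an array changed by -0.09 in heterozygous and by -0.40 in homozygous blood from wild type. Relative to the wild-type mean it was at -0.01, 0.03 and -0.02 on the wild-type, -0.14, -0.12 and -0.01 on the heterozygous and -0.39, -0.35 and -0.47 on the homozygous arrays. The homozygous arrays overlapped with neither other group (exact permutation test, 2-sided, p = 0.1 in both, the smallest possible, adjusted p = 0.129), and the heterozygous arrays overlapped with wild type (exact permutation p = 0.3).

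Col18a1 encodes a collagen of vascular and epithelial basement membranes whose end fragment is endostatin. It was at 6.88, 7.00 and 6.93 in wild-type, 6.86, 6.97 and 7.02 in heterozygous and 7.20, 7.19 and 7.23 in homozygous blood. The homozygous arrays stood above all others. It rose by 0.27 ± 0.06 in homozygous blood (SE; limma adjusted p = 0.00711) and by 0.26 ± 0.06 against heterozygous (limma adjusted p = 0.0162), with 0.01 in heterozygous against wild-type blood. The second probe set gave 0.36 in homozygous and 0.24 in heterozygous blood, both called, and 0.12 between them, which was not. The rise from wild type did not pass with reference genes (0.18, limma adjusted p = 0.0890), and the difference between the mutant genotypes did not pass without heterozygous replicate 1 (0.21, limma adjusted p = 0.0783).

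The other 6 basement membrane genes were not called. Col4a3, Col4a4, Col4a5 and Col4a6, which encode the type IV chains of kidney, lung and other restricted sites, had homozygous differences of -0.04, 0.03, -0.18 and 0.05. Col7a1, the anchoring fibril collagen of skin, and Col15a1, a collagen at the outer face of basement membranes, were at 0.10 and 0.20. Over the 9 basement membrane genes the median was 0.01 in heterozygous and 0.03 in homozygous blood, with 0 higher and 2 lower (22.2%, against 7.04% of all genes) in heterozygous blood, and 1 higher and 1 lower (11.1% each, against 10.7% and 14.9%) in homozygous blood. By the probe sets used, the 5 collagen genes that rose in heterozygous blood were all fibrillar and the 2 that fell were both basement membrane genes. These 2 were Col4a1 and Col4a2, whose annotated starts lie 21 bases apart. The split depends on the probe set, as the second one of Col18a1, a basement membrane gene, rose by 0.24 in heterozygous blood.

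The plot of single probe sets shows how far these values depend on the reading of a gene.

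**Figure D3:**
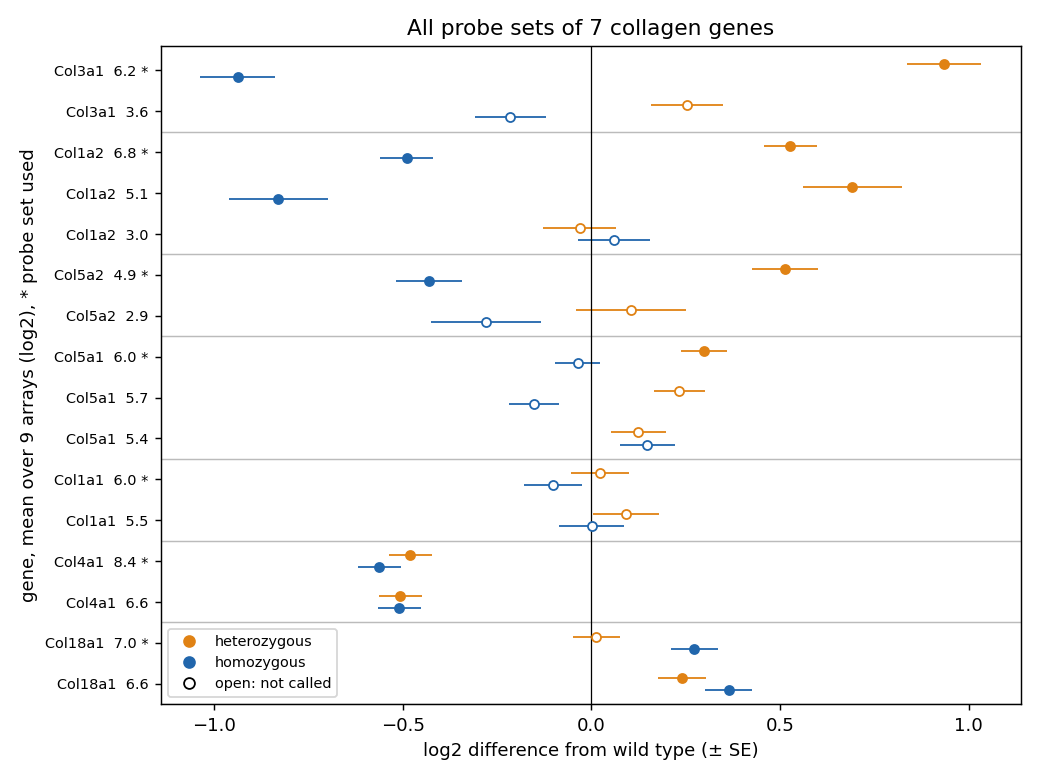
Log2 difference from wild type with its SE (n = 3 arrays against 3) for every probe set of 7 collagen genes, in heterozygous (orange) and homozygous (blue) blood, with the mean of the probe set over 9 arrays beside its gene and a star at the one used; open points did not pass. Both probe sets of Col4a1 lie near -0.5, and the dimmest probe sets of Col3a1, Col1a2 and Col5a2 lie closer to 0 than the ones used.

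Of the 22 genes of the other types, none was called in heterozygous against wild-type blood, where 4.79% of all genes rose and 7.04% fell. None was called between the mutant genotypes, where 5.38% were higher and 10.4% lower. In homozygous against wild-type blood 2 of the 22, Col10a1 and Col6a5, rose and none fell, where 10.7% and 14.9% of all genes did. The rises were thus not more frequent than among all genes. Both genes fall outside the rule for named genes and are given because they complete the count. Col10a1, the network collagen of hypertrophic cartilage, was at 4.42, 4.35 and 4.30 in wild-type, 4.54, 4.42 and 4.48 in heterozygous and 4.83, 4.55 and 4.81 in homozygous blood. The 3 genotypes did not overlap, and the homozygous rise was 0.37 (limma adjusted p = 0.00469). Col6a5, a chain of the type VI beaded filaments, was read by a dim probe set with group means of 2.46 (wild type) and 2.67 (homozygous) (limma adjusted p = 0.0425). The 9 fibril-associated genes, which bind the surface of fibrils, had homozygous differences of -0.11 to 0.22, and the 4 transmembrane genes of 0.00 to 0.04. The other chains of type VI collagen, Col6a1, Col6a2, Col6a3 and Col6a4, were not called in any comparison.

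By whether arrays overlapped, 6 collagen genes lay wholly above and 2 wholly below wild type in heterozygous blood (14.3% and 4.76%, against 14.2% and 15.7% of all genes). In homozygous blood 6 lay above and 5 below (14.3% and 11.9%, against 20.9% and 18.3%). Between the mutant genotypes 5 lay higher and 7 lower in homozygous blood (11.9% and 16.7%, against 15.7% and 15.4%).

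Genes that build, assemble, remodel and sense collagen were taken from lists written with earlier results of these data known. The counts below are to be read against the shares of all genes called, 10.7% higher and 14.9% lower in homozygous and 4.79% and 7.04% in heterozygous against wild-type blood, and several lie near them. Of 18 measured genes that modify and fold the chains, 2 rose and 4 fell in homozygous blood, and 2 rose and 3 fell in heterozygous blood. P4ha1, which encodes a catalytic subunit of prolyl 4-hydroxylase, was lower in both, by differences of -0.31 and -0.26. So were P4ha2, for another catalytic subunit, at -0.31 in each, and the chaperone gene Hsp90b1, at -0.84 and -0.30. P4hb, which encodes the other type of subunit of prolyl 4-hydroxylase, was higher in both, at 0.19 and 0.20, both called. Ppib also rose in homozygous blood, at 0.25. Crtap, part of the complex that hydroxylates a proline near the chain end, was at 5.36, 5.31 and 5.27 in wild-type, 5.60, 5.82 and 5.57 in heterozygous and 5.20, 5.36 and 5.14 in homozygous blood. It rose by 0.35 in heterozygous blood (limma adjusted p = 0.0174) and was lower by -0.43 in homozygous than in heterozygous blood. Serpinh1, the collagen-specific chaperone, was at 0.20 and 0.04 and did not pass.

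Of 13 genes of secretion, propeptide removal and cross-linking, Mia3 and Sec23a fell in homozygous blood, at -0.62 and -0.60, and Mia3 fell in heterozygous blood, at -0.25. Mia3 encodes the receptor that loads procollagen into transport vesicles and Sec23a a coat protein of those vesicles. Of 13 genes of turnover, Timp1, an inhibitor of matrix metalloproteinases, rose by 0.30 in homozygous blood, Timp2 was at -0.29, and Mmp8, the neutrophil collagenase, was at -0.42 in heterozygous blood. Of 10 measured genes listed as collagen receptors or their partners, 2 fell and none rose in homozygous blood. The only call of the list in heterozygous blood was Mag, at -0.23, and that Mag acts as a collagen receptor is not shown here. Fcer1g, the signalling partner of the platelet collagen receptor and of Fc receptors, was at -1.66, and the integrin gene Itgb1 at -0.36. Gp6, the platelet collagen receptor itself, was at 0.15 in homozygous and 0.09 in heterozygous blood and did not pass.

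Of 11 proteins that bind or organise fibrils, 3 fell in homozygous blood and none passed in heterozygous blood. Lum, a proteoglycan that spaces fibrils, was at 5.93, 6.03 and 5.75 in wild-type, 6.03, 6.07 and 5.90 in heterozygous and 4.80, 5.08 and 4.76 in homozygous blood. The homozygous arrays lay below all others, by -1.02 from wild type (limma adjusted p = 7.49e-06). The matrix protein gene Postn was at -0.63 and the proteoglycan gene Dcn at -0.33, both called. In heterozygous blood Lum was at 0.10, Postn at 0.03 and Dcn at 0.11. Fbn2 and Bgn, at 0.36 and 0.26, were the largest heterozygous differences of the list and did not pass.

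Of 16 measured partners of type IV collagen in basement membranes, 0 rose and 6 fell in homozygous blood, and 1 rose and 4 fell in heterozygous blood. The laminin chain genes Lama1, Lamb1 and Lamc1 were lower in both genotypes, at -0.48, -0.41 and -0.30 in heterozygous and -0.38, -0.51 and -0.38 in homozygous blood. Lamb1 was at 6.62, 6.66 and 6.51 on the wild-type arrays, 6.17, 6.22 and 6.16 on the heterozygous and 6.22, 6.04 and 5.99 on the homozygous. As in Col4a1, all mutant arrays lay below all wild-type arrays. Sparc, a calcium-binding matrix protein that binds collagen, was at -0.28 and -0.22, called in both. Nid1, the linker of laminin and type IV collagen, was at -0.20 in heterozygous blood, which did not pass, and fell in homozygous blood, at -0.55. The heparan sulfate proteoglycan gene Hspg2, at 0.02 and 0.03, was not called. Pxdn, which encodes the enzyme that cross-links type IV collagen, rose in heterozygous blood by 0.32. The median over the 16 genes was -0.01 in heterozygous and -0.02 in homozygous blood.

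Of 21 regulators of collagen transcription, 8 fell and none rose in homozygous blood, and 4 fell in heterozygous blood. Tgfbr1, a receptor for TGF-beta, was at -1.08 and the signal transducer Smad4 at -0.61 in homozygous blood. Nfya, a subunit of the factor that binds CCAAT, was at -0.62 and -0.39 in homozygous and heterozygous blood, and Sp1, which binds GC boxes, at -0.78 and -0.35. The connective tissue growth factor gene Ccn2 was at -0.81 in heterozygous and -0.47 in homozygous blood, both called. Its homozygous minus heterozygous difference, 0.33, was also called.

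**Figure D4:**
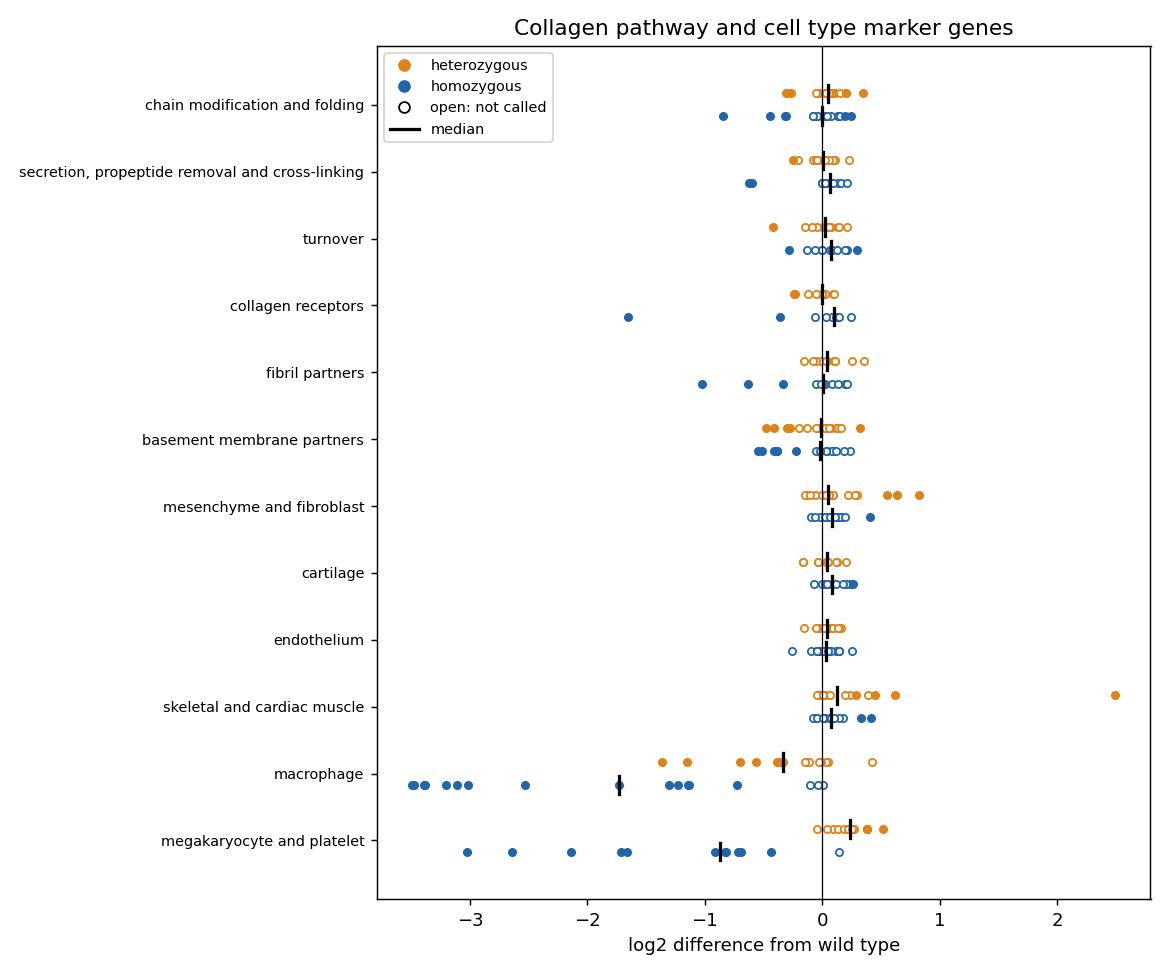
Log2 difference from wild type of each measured gene in 12 lists (rows), in heterozygous (orange) and homozygous (blue) blood, with the median of each list as a bar; open points did not pass. Medians of the collagen pathway lists lie within about 0.1 of 0 while single genes fall, and the macrophage and the megakaryocyte and platelet lists reach medians of -1.73 and -0.87 in homozygous blood.

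Markers of other cell types were read beside the collagens. The erythroid list had the highest summed linear level of the marker lists, at 89498 to 89842 in wild-type blood. Its markers spread widely, from Hba-x at 14.31, 14.28 and 14.30 on the wild-type arrays to others such as Epor at a wild-type mean of 9.02. Detection calls were not used here, so no marker can be given as absent. Of 18 mesenchyme and fibroblast markers, 3 rose in heterozygous and 1 in homozygous blood, none fell from wild type, and the medians were 0.05 and 0.08. Dlk1 and Cdh11 rose in heterozygous blood, by 0.64 and 0.83, and Twist2 rose in both, by 0.55 and 0.41. Cdh11, a cadherin of mesenchyme, was at 3.80, 2.91 and 2.91 on the heterozygous arrays, with replicate 1 apart from the others. Between the mutant genotypes Cdh11 and Dlk1 were lower in homozygous blood, at -0.89 (limma adjusted p = 0.0114) and -0.61 (limma adjusted p = 0.000137). Col3a1, Col1a2 and Col5a2 differed in the same direction there, and Pdgfrb was higher in homozygous blood, at 0.29. Against wild type, Col3a1, Col1a2 and Col5a2 fell in homozygous blood, while Cdh11 and Dlk1 were at -0.06 and 0.02 and did not pass. The mean of Cdh11 over all arrays, 2.64, lay among the dimmest 40% of probe sets. Pdgfra, a receptor of mesenchymal cells, was at 0.04 and -0.02 and did not pass. The summed linear level of the list was 415 to 419 in wild-type, 438 to 452 in heterozygous and 446 to 467 in homozygous blood.

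Endothelial markers, 18 in number, gave no call in any comparison, with summed levels of 541 to 546, 549 to 557 and 540 to 569. Of 10 cartilage markers, Matn3 rose in homozygous blood, by 0.26, and none was called in heterozygous blood, with summed levels of 170 to 185, 175 to 187 and 192 to 207. Skeletal and cardiac muscle markers rose in 4 of 14 in heterozygous blood, led by the cardiac actin gene Actc1 at 2.50. In homozygous blood 2 of 14 rose, Actc1 at 0.42 and Myl7 at 0.33. The summed level of the muscle markers was 324 to 344, 511 to 536 and 346 to 364. Neural markers rose in 4 of 14 in heterozygous and in 1 of 14 in homozygous blood, Tubb3 at 0.52. Their sums were 356 to 366, 386 to 397 and 387 to 390.

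Macrophage markers fell in 7 of 17 in heterozygous and 14 of 17 in homozygous blood, with sums of 2502 to 2546, 1864 to 1903 and 451 to 454. Megakaryocyte and platelet markers rose in 2 of 12 in heterozygous blood and fell in 11 of 12 in homozygous blood, with sums of 1536 to 1558, 1877 to 1938 and 582 to 624. Liver and visceral endoderm markers rose in 7 of 12 in homozygous and fell in 1 of 12 in heterozygous blood, with sums of 744 to 758, 604 to 631 and 1169 to 1259. The epithelium and placenta list had 1 of 8 higher in homozygous blood, with sums of 539 to 567, 524 to 534 and 607 to 626, and the erythroid list 2 of 11 higher and 3 lower. Between the mutant genotypes, 10.4% of all genes were lower and 5.38% higher in homozygous blood. There 3 of 14 muscle, 14 of 17 macrophage and 11 of 12 megakaryocyte and platelet markers were lower. The 2 of 14 neural markers that were lower lie near the share of all genes. Of the liver and visceral endoderm markers, 7 of 12 were higher. The part of these cell types in the collagen differences was not tested.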

How the data were processed

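Total RNA of pooled embryonic blood was labelled by the One Cycle method and hybridized to 9 Affymetrix arrays. RMA, Expression Console 1.0 (Affymetrix) and Partek 6.5 are listed in the submitters' processing notes, with no roles. The deposited values, 45101 probe sets by 9 arrays from 1.49 to 14.56, were taken as log2, from their range and from RMA being named. Array medians lay between 4.26 and 4.29, and arrays correlated at r = 0.996 to 0.998 within and 0.987 to 0.995 between genotypes. Signal over background is unknown here. Precision is limited by having 3 arrays a genotype.

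The 64 control probe sets were left out of the tests. The annotation named 1 gene for 34945 of the remaining 45037 probe sets, several for 932 and none for 9160. All 42 collagen symbols matched RefSeq by Entrez identifier. Titles gave the genotype. In R 4.3.3, limma 3.58.1 (lmFit and eBayes) compared the genotypes in 1 fit of the 9 arrays, 2-sided, adjusted by Benjamini-Hochberg over 45037 probe sets, threshold 0.05. Folds are 2 to the power of the absolute log2 difference. The fit was tested on simulated data. Of 50 probe sets changed by 0.25, 0.5 or 1 on the log2 scale, 8%, 68% and 94% were recovered. There were 8 false calls. The simulation changed far fewer probe sets than were called in these data (3758 higher and 5261 lower in homozygous against wild-type blood). Its adjustment was therefore stricter, and its shares do not give the recovery in these data. In homozygous against wild-type blood P4hb was called at 0.19, and Loxl4, a gene of the cross-linking list, was not at 0.21. Promoter windows of 33 collagen genes came from RefSeq, GRCm38.p6. Figures used matplotlib 3.10.9.

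The members and lists were chosen with earlier results of these data known. All arrays are given for fibrillar and basement membrane genes called in at least 1 comparison and for other collagens called with a difference of 0.5 or more. Of each list up to 4 called genes, or 2 uncalled ones, were to be named. Col1a1, Col10a1, Col6a5, Serpinh1, P4hb, Gp6, Hspg2, Pdgfra and Sparc were added after their values were seen. So were further values of genes named in another comparison, and the ratios of chain pairs. Alternatives tried were fits restricted to the compared genotypes, a replicate block, a filter on the dimmest 40%, an intensity trend, quantile and cyclic loess normalization, array medians, reference genes, tests per gene, means over probe sets, omission of _x_at and _s_at probe sets, a threshold of 0.01 and leaving out each array.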

Additional observations from a re-analysis of the deposited data

How the results depend on the processing

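Counts of collagen genes called were within 1.5 times of the values given, except as follows. With reference genes, 1 rose in homozygous against wild-type blood, in place of 3, 6 fell in heterozygous against wild-type blood, in place of 2, and 5 were higher in homozygous than in heterozygous blood, in place of 2. That scaling also moved the share of rises among all called probe sets from 41.7% to 18.9% for homozygous and from 39.8% to 3.89% for heterozygous against wild-type blood, and from 34.4% to 66.9% between the mutant genotypes. The count of 2 higher in homozygous than in heterozygous blood, Col4a2 and Col18a1, became 1 without _x_at and _s_at probe sets and 0 at a threshold of 0.01. Leaving out 1 array gave 0 to 3 for that count; it was 0 without heterozygous replicate 1 and 1 without heterozygous replicate 3 or homozygous replicate 1. For the other counts, leaving out 1 array gave 2 to 4 rises and 4 to 5 falls in homozygous against wild-type blood, 5 rises and 2 falls in heterozygous against wild-type blood, and 4 falls between the mutant genotypes. Of 24 differences of 8 named collagen genes under 504 combinations of gene, comparison and alternative, 10 lost and 6 gained a call, and no difference that passed the test changed sign; the causes were not tested. Differences that did not pass changed sign in Col18a1 in heterozygous against wild-type blood (-0.16 with reference genes, -0.02 without heterozygous replicate 3 or wild-type replicate 1) and in Col5a1 in homozygous against wild-type blood with quantile normalization, where it was near 0.

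Arrays with the same replicate number deviated together little, if at all (r = -0.02 to 0.07 over 9 pairs, and 9 of 18 best matches with the own number). Over 18 pairs with different numbers r was -0.06 to 0.03. With so few arrays this check cannot exclude that the number pairs them. With the replicate block the counts were 2 higher and 4 lower in homozygous, 5 and 2 in heterozygous against wild-type blood, and 3 and 4 between the mutant genotypes. Dim probe sets and the low number of arrays limit which small differences can be seen.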

Other observations

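Of the 40 collagen probe sets that were not the brightest of their gene, 2 rose and 2 fell in homozygous against wild-type blood. In heterozygous against wild-type blood 2 rose and 1 fell, and 0 were higher and 3 lower in homozygous than in heterozygous blood. Of all 45037 probe sets, 3758 rose and 5261 fell in homozygous, and 1536 rose and 2319 fell in heterozygous against wild-type blood. Between the mutant genotypes 1880 were higher and 3579 lower in homozygous blood. The called ones of Col1a2, Col3a1, Col4a1, Col5a1 and Col18a1 are given above. The other was a dim probe set of Col22a1, a fibril-associated collagen of tissue junctions, which rose by 0.26 in homozygous against wild-type blood. It was at 3.42, 3.52 and 3.50 on the wild-type, 3.60, 3.61 and 3.80 on the heterozygous and 3.87, 3.75 and 3.62 on the homozygous arrays. The other 2 probe sets of Col22a1 gave 0.05 and -0.06 and were not called.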
